A study of Mus musculus with 21 samples.

Results

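The vasoactive peptide, angiotensin and nitric oxide genes described here were 10 genes taken by name: Agt, Ace, Agtr1a, Edn1, Ednra, Ednrb, Nos3, Npr1, Npr3 and Gucy1a1. All 10 were found among the 46517 Ensembl gene entries of the counts table, and all 10 were among the 14324 genes that had enough counts to be tested. RNA of left ventricle tissue was sequenced from 4 control mice (Notch3 +/+) and 3 Notch3-/- mice, all of strain c57bl/6j, with 3 technical libraries from each mouse and 21 libraries in all. The question was how hearts without Notch3, a receptor of vascular mural cells, differ from control hearts. The Notch3-/- allele carries lacZ inserted at the gene by targeting, and the control mice carry no altered allele by their labels. The age was 10 to 14 months by the legend for these animals, and the sex of the mice is not given. The labels of control mice 1 and 2 start with X and those of the other 5 mice start with k, so this difference in labels holds no Notch3-/- mouse with an X label, and what the letters stand for is not given. Control mice 1 to 4 had 3091461, 4638786, 4208205 and 3046326 counts, and Notch3-/- mice 1 to 3 had 3828763, 5167869 and 5086740. Single libraries held 464390 to 2427783 counts.

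Angiotensinogen, the product of Agt, is cleaved by renin and then by the angiotensin-converting enzyme to angiotensin II, which constricts vessels through its type 1 receptor. Endothelin-1 from the endothelium acts on smooth muscle through the A receptor and on endothelium through the B receptor. Nitric oxide and the natriuretic peptides oppose both by raising cyclic GMP, through soluble guanylyl cyclase and through the receptor cyclase Npr1, and in the heart these systems set coronary tone and respond to load.

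Levels are given as CPM, the counts of a mouse (its 3 libraries summed) scaled to a common library size with TMM factors. Notch3 was measured first as a check of the labels. It had 57.3, 42.1, 57.6 and 61.8 CPM in control mice 1 to 4 and 6.01, 7.57 and 4.73 CPM in Notch3-/- mice 1 to 3. Every Notch3-/- mouse lay below every control mouse, and the log2 fold change was -3.16 (SE 0.23, edgeR quasi-likelihood, Benjamini-Hochberg FDR 0.00173), and -3.52 (edgeR FDR 0.0124) without Notch3-/- mice 1 and 2. The call was lost among the mice with k labels, at -3.29 (edgeR FDR 0.206), and with the hepatocyte score described below as a covariate, at -3.39 (edgeR FDR 0.111), and the FDR ranged from 2.74e-27 to 0.206 over all alternatives. An antisense gene, Gm17276, shares 488 exon bases with Notch3. The sources used here do not say if strand was used in counting, and the library kit does not mark it, so reads of antisense or overlapping genes cannot be told apart here.

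A pair of Notch3-/- mice stood apart from the other 5 mice. The 15 hepatocyte markers, all with counts, summed to 193, 289, 114 and 121 CPM in control mice 1 to 4 and to 7168, 11697 and 261 CPM in Notch3-/- mice 1 to 3. Notch3-/- mice 1 and 2 were far above all others, and in this sum Notch3-/- mouse 3 lay within the range of the control mice. The hepatocyte score, the mean log2 CPM of the markers, reached 1.64, 2.81, 0.59 and 0.80 for control mice 1 to 4 against 8.47, 9.35 and 2.84 for Notch3-/- mice 1 to 3, so that by the score Notch3-/- mouse 3 was next to control mouse 2 and just above all control mice. The most abundant of these markers was Trf, the gene of transferrin, which was also present at 98.2 to 144 CPM in control hearts, and none of the 15 was at 0 in all mice. Of the 15, 14 were tested, all 14 had a log2 fold change above 0 and an unadjusted p below 0.05, where 7.34% of all tested genes were higher at that p. Of the 15 listed genes, tested or not, 7 lay above all control mice in all Notch3-/- mice, against 4.57% of all tested genes. EdgeR called 0 of the 14, against 0.00698%. DESeq2 called 15 of 15, edgeR on every gene 15 of 15 and limma-voom 2 of 6, Alb and Trf. Over all genes these tools called 3.53%, 2.22% and 0.581%. The median log2 fold change was 6.87 with all mice. It was 1.20 without Notch3-/- mice 1 and 2, with 13 genes above 0 and 0 at an unadjusted p below 0.05, where 2.44% of all genes were higher. Notch3-/- mouse 3 was above all control mice for 6 of the 14, against 19.9% of all genes. The 6 markers of liver sinusoids and Kupffer cells summed to 42.1, 40.7, 35.1 and 38.1 CPM in control mice and to 80.9, 129 and 35.0 CPM in Notch3-/- mice, with Colec11 the most abundant. Of these markers edgeR called 0 of 2 tested and limma-voom 0 of 1. DESeq2 called 4 of 6 and edgeR on every gene 4 of 6, all higher, against 3.53% and 2.22% of all genes. The fold changes of the genes named from the pathway lists and the counts and medians of those lists are therefore given with and without Notch3-/- mice 1 and 2. Whether the tissue of these mice held RNA of liver was not tested, and their part in each result was not tested beyond these values and a fit with the hepatocyte score as a covariate. The score was high in Notch3-/- mice 1 and 2 alone, so that fit cannot separate the score from genotype in these mice.

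Of the 10 genes, 0 were called between genotypes by edgeR at an FDR below 0.05 and a fold change of at least 1.5, where 0.00698% of all tested genes were called, a share that is Notch3 alone. At an unadjusted p below 0.05, 1 of the 10 was higher in Notch3-/- hearts, Agt, where 7.34% of all tested genes were, and 1 was lower, Gucy1a1, where 3.05% were. The genotypes did not overlap for the same pair of genes. Agt lay above every control mouse in all 3 Notch3-/- mice, which held for 4.57% of tested genes, and Gucy1a1 lay below, which held for 3.96%. The other 8 genes overlapped. The fold change was above 0 for 5 genes and below 0 for 5, with a median log2 value of 0.02 against -0.0028 over all tested genes. Other tools called 1 of the 10, Agt in each case. DESeq2 did so where it called 3.53% of 17013 genes, edgeR on every gene with at least 1 count where it called 2.22% of 28790, and limma-voom on the 21 libraries with the mouse as random effect where it called 0.581% of 11193. Limma-voom used 1 correlation between the libraries of a mouse, 0.152, for all genes. Its FDR is too low for a gene whose libraries cluster more tightly by mouse, as those of Agt did. EdgeR without Notch3-/- mouse 3 also called Agt, and called 6.24% of 15008 genes. Without Notch3-/- mice 1 and 2, edgeR called 0 of the 10, 1 was higher at an unadjusted p below 0.05, Agt, where 2.44% of 15395 genes were, and 0 were lower, where 2.72% were. Notch3-/- mouse 3 alone was above all control mice for Agt, Ace, Edn1 and Npr1, as for 19.9% of genes, and below them for Gucy1a1, as for 21.1%. The median log2 fold change of the 10 was then 0.0097, against -0.022 over all genes. With 1 gene higher and 1 lower of 10, nothing is read from these counts about the set.

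**Figure D1:**
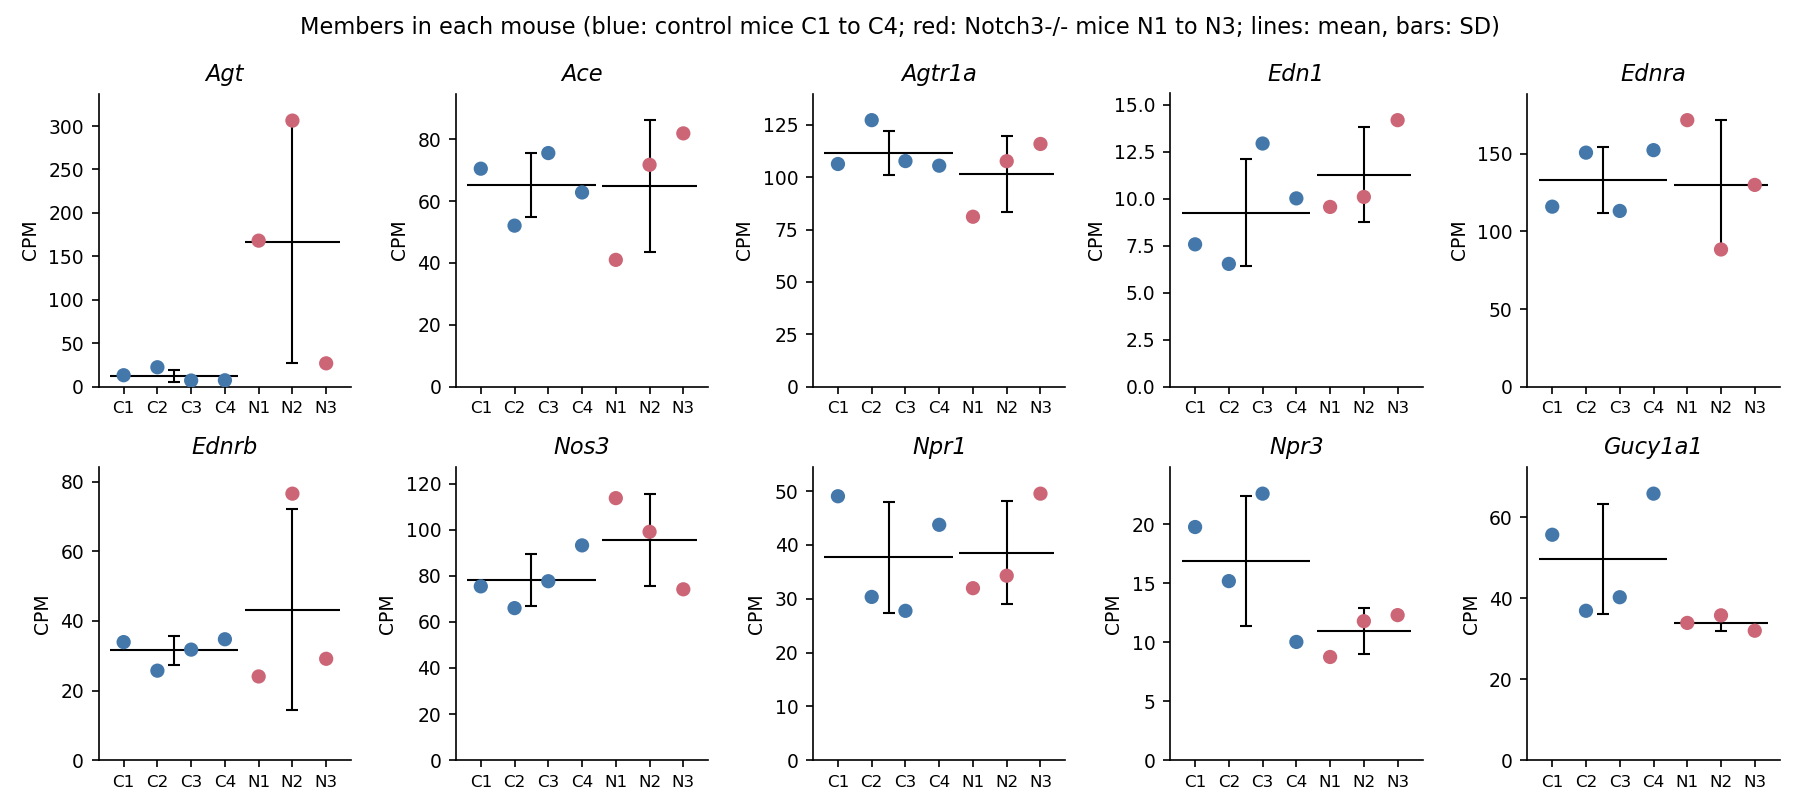
CPM of each gene (vertical axis, starting at 0) in control mice 1 to 4 (C1 to C4, blue) and Notch3-/- mice 1 to 3 (N1 to N3, red), with the group mean as a line and the SD as a bar. The groups are apart for Agt and Gucy1a1 and overlap for the other 8 genes.

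Agt (ENSMUSG00000031980), which encodes the precursor of all angiotensin peptides and is best known as a product of the liver, has its place on chromosome 8 (minus strand, 124556534 to 124569706, GRCm38). It had 13.2, 22.3, 7.06 and 7.35 CPM in control mice 1 to 4 and 168, 306 and 26.9 CPM in Notch3-/- mice 1 to 3. The high values were those of Notch3-/- mice 1 and 2, and Notch3-/- mouse 3 was next to control mouse 2. The means were 12.5 ± 7.15 CPM (SD, n = 4) and 167 ± 140 CPM (SD, n = 3), and the highest mouse had 43.4 times the level of the lowest. The log2 fold change was 3.72 (SE 0.70, edgeR quasi-likelihood, Benjamini-Hochberg FDR 0.118). It was 3.72 with an FDR of 0.00166 in DESeq2, and 4.21 with an FDR of 0.000112 in edgeR without Notch3-/- mouse 3, within a range of 0.000112 to 0.999 over all alternatives. Without Notch3-/- mice 1 and 2, with the spread of the remaining Notch3-/- mouse taken from the control mice, it was 1.08 (SE 0.49, edgeR FDR 0.885). With the hepatocyte score as a covariate it was 0.36 (SE 0.29, edgeR FDR 0.999).

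By library, the 3 of Notch3-/- mouse 3 had 28.0, 12.2 and 33.7 CPM of Agt at 177, 175 and 341 CPM of summed hepatocyte markers. Those of control mouse 2 had 11.1, 34.9 and 29.5 CPM of Agt at 232, 363 and 303 CPM of the markers. The libraries of these mice thus overlapped in Agt and in the markers, although the summed value of Notch3-/- mouse 3 lay above that of control mouse 2. In Notch3-/- mouse 1, whose libraries had 8541, 5873 and 7717 CPM of the markers, Agt was at 165, 164 and 167 CPM. In Notch3-/- mouse 2, whose libraries had 10423, 11890 and 12172 CPM of the markers, Agt was at 279, 310 and 312 CPM. Per length, the ratio of Agt to Alb, the albumin gene, was 0.729, 0.341, 3.72 and 0.851 in control mice against 0.122, 0.202 and 0.497 in Notch3-/- mice, and the high value of control mouse 3 rested on 10 counts of Alb. Of 10728 genes with a mean of at least 10 CPM, those whose pattern over the 7 mice was most like that of Agt were Lsr, Slc23a1 and Col18a1, at root mean square differences of 0.37, 0.45 and 0.46 on the centred log2 scale. Lsr had 5.27, 5.48, 3.06 and 3.01 CPM in control mice and 50.6, 161 and 7.19 CPM in Notch3-/- mice, a pattern for which it was chosen. Slc23a1 had 0.988, 1.69, 1.41 and 0.668 CPM in control mice and 28.1, 45.4 and 2.46 CPM in Notch3-/- mice. Lsr and Slc23a1 thus reached a mean of 10 CPM only through Notch3-/- mice 1 and 2. Col18a1 had 11.9, 20.7, 7.29 and 14.4 CPM in control mice and 109, 369 and 21.2 CPM in Notch3-/- mice.

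**Figure D2:**
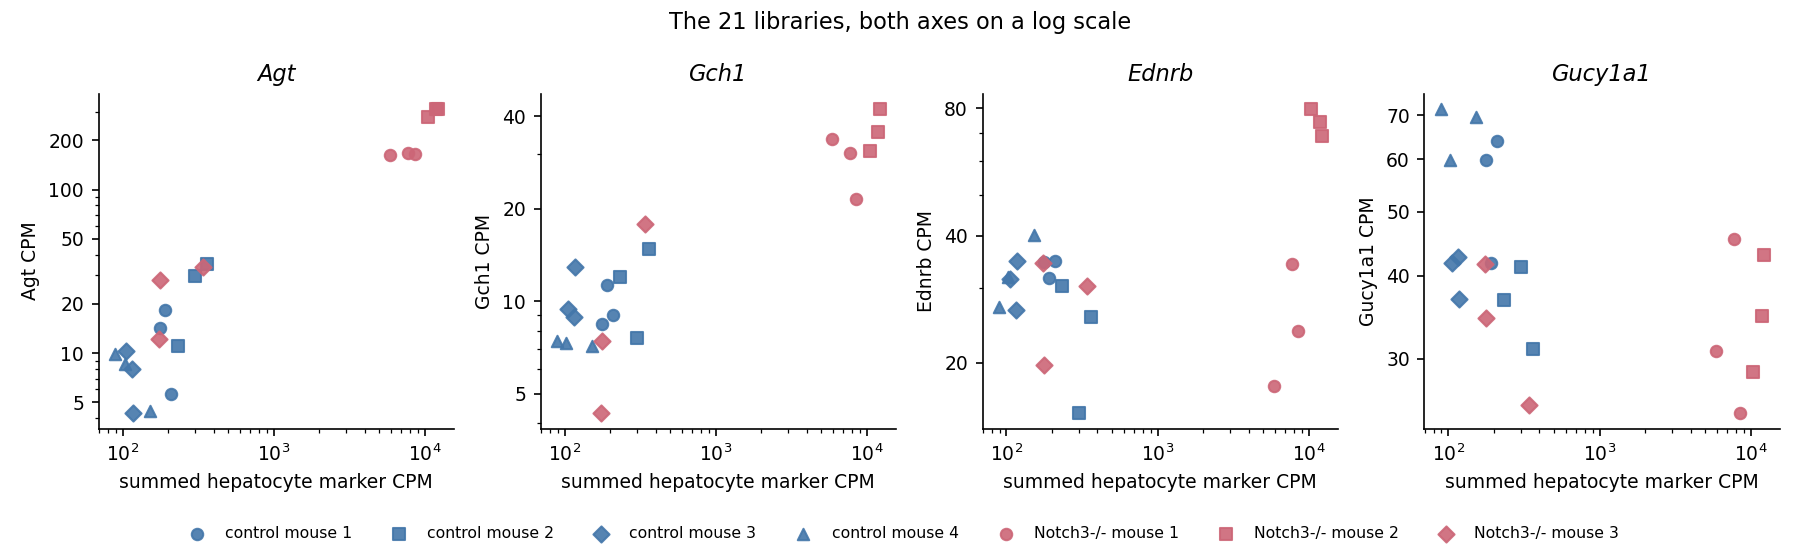
Agt, Gch1, Ednrb and Gucy1a1 in CPM against the summed hepatocyte marker CPM in each of the 21 libraries, both axes logarithmic, blue for control and red for Notch3-/-. Agt and Gch1 are high in the libraries of Notch3-/- mice 1 and 2, Ednrb in those of Notch3-/- mouse 2, and Gucy1a1 in neither.

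Promoter sequence was searched for the members to describe what stands before each start. Of the 10 genes, 8 had an entry in the RefSeq table of GRCm38.p6, with 10 starts in all, and Agtr1a and Nos3 had none. The TATA letters TATAAA, on either strand, stood in the 250 bases before the start in 12.4% of 32851 mouse promoters and in 2 of the members, Agt at 30 bases before the start and Ace at 31. The sequence of Agt is shown because it is the gene with the largest difference. It lies on the minus strand at chr8:124569707-124569956, upstream of the first exon, and the capitals mark TATAAA.
Agt promoter: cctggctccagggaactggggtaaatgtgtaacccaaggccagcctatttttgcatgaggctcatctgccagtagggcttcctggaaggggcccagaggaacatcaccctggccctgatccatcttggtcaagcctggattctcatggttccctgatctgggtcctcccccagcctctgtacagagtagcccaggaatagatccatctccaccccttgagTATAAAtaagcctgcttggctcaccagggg
A match is a description of letters and not a site in use.

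Edn1 (ENSMUSG00000021367), the gene of endothelin-1, on chromosome 13 from 42301476 to 42307990, rested on 23 to 75 counts per mouse. It had 7.57, 6.53, 12.9 and 10.0 CPM in control mice and 9.56, 10.1 and 14.2 CPM in Notch3-/- mice. The groups overlapped, with control mouse 3 between the Notch3-/- values. Its log2 fold change was 0.29 (SE 0.31, edgeR quasi-likelihood, Benjamini-Hochberg FDR 0.789). Without Notch3-/- mice 1 and 2 it was 0.61, and among the mice with k labels alone it was -0.03, so its sign differed without control mice 1 and 2.

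Ace (ENSMUSG00000020681), on chromosome 11 from 105967945 to 105989964, encodes the enzyme that makes angiotensin II. Its values were 70.5, 52.1, 75.5 and 62.8 CPM in control mice and 41.0, 71.7 and 81.9 CPM in Notch3-/- mice. The lowest and the highest value of all 7 mice were both in Notch3-/- mice, and the means of 65.2 ± 10.2 CPM (SD, n = 4) and 64.9 ± 21.3 CPM (SD, n = 3) were close. Ace had a log2 fold change of -0.0030 (SE 0.23, edgeR quasi-likelihood, Benjamini-Hochberg FDR 0.997), and it was 0.33 without Notch3-/- mice 1 and 2. An antisense gene, Gm11651, shares 295 exon bases with Ace, so part of its count is uncertain.

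Nos3 (ENSMUSG00000028978), the endothelial nitric oxide synthase gene on chromosome 5 from 24364810 to 24384474, had 75.4, 66.0, 77.6 and 93.2 CPM in control mice. In Notch3-/- mice it had 114, 99.1 and 74.1 CPM. Notch3-/- mice 1 and 2 were above every control mouse and Notch3-/- mouse 3 was within the control range. For Nos3 the log2 fold change was 0.29 (SE 0.18, edgeR quasi-likelihood, Benjamini-Hochberg FDR 0.600), and -0.07 without Notch3-/- mice 1 and 2. Nos3 shares 1040 exon bases with the antisense gene Gm15587 and 294 with Atg9b on the other strand, and Gm15587 had 998 counts over the 7 mice against 2430 for Nos3, so the level of Nos3 is uncertain.

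The 3 receptors of angiotensin II and endothelin overlapped between genotypes. Agtr1a (ENSMUSG00000049115), the type 1 angiotensin receptor gene on chromosome 13 from 30336441 to 30382867, had 106, 127, 108 and 106 CPM in control mice and 81.2, 108 and 116 CPM in Notch3-/- mice. Only Notch3-/- mouse 1 lay below the control range. For Agtr1a the log2 fold change was -0.14 (SE 0.16, edgeR quasi-likelihood, Benjamini-Hochberg FDR 0.809), and 0.052 without Notch3-/- mice 1 and 2. Ednra (ENSMUSG00000031616), the endothelin A receptor gene on chromosome 8 (minus strand, 77663031 to 77724464), had 116, 151, 113 and 152 CPM in control mice and 172, 88.3 and 130 CPM in Notch3-/- mice. Notch3-/- mice 1 and 2 were above and below all control mice, in opposite directions, and the log2 fold change was -0.03 (SE 0.22, edgeR FDR 0.976), and also -0.03 without both of them. Ednra shares 91 exon bases with 4933431K23Rik on the other strand.

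Ednrb (ENSMUSG00000022122), the endothelin B receptor gene on chromosome 14 (minus strand, 103814625 to 103844402), had 33.9, 25.7, 31.8 and 34.7 CPM in control mice and 24.0, 76.6 and 29.1 CPM in Notch3-/- mice. Notch3-/- mouse 2 was above all others, and Notch3-/- mouse 1 was the lowest of the 7. Ednrb had a log2 fold change of 0.46 (SE 0.36, edgeR quasi-likelihood, Benjamini-Hochberg FDR 0.692), and it was -0.24 without Notch3-/- mouse 2 and -0.11 without Notch3-/- mice 1 and 2. The coefficient of variation was 12.9% in control mice and 67.0% in Notch3-/- mice. Per length, the ratio of Ednra to Ednrb was 2.66, 4.57, 2.78 and 3.42 in control mice against 5.56, 0.899 and 3.48 in Notch3-/- mice, so that Notch3-/- mouse 2 was the only mouse with more Ednrb than Ednra. The genes most like Ednrb over the 7 mice were Ggact, Plin2 and Zc3h7a, at root mean square differences of 0.14, 0.16 and 0.17. Plin2, the gene of a lipid droplet protein, had 150, 144, 162 and 173 CPM in control mice and 152, 371 and 167 CPM in Notch3-/- mice.

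The 2 natriuretic peptide receptors also overlapped. Npr1 (ENSMUSG00000027931), the receptor cyclase for atrial and brain natriuretic peptides on chromosome 3 (minus strand, 90450591 to 90465866), had 49.1, 30.3, 27.8 and 43.8 CPM in control mice and 32.0, 34.3 and 49.5 CPM in Notch3-/- mice. Both groups spanned nearly the same range, and the log2 fold change was 0.04 (SE 0.24, edgeR quasi-likelihood, Benjamini-Hochberg FDR 0.971), or 0.41 without Notch3-/- mice 1 and 2. Npr1 shares 559 exon bases with the antisense gene Gm16048. Npr3 (ENSMUSG00000022206), the clearance receptor gene on chromosome 15 (minus strand, 11839896 to 11907287), had 19.8, 15.2, 22.6 and 10.0 CPM in control mice and 8.74, 11.8 and 12.3 CPM in Notch3-/- mice. Control mouse 4 lay among the Notch3-/- mice and the other 3 control mice lay above them. Npr3 had a log2 fold change of -0.62 (SE 0.30, edgeR FDR 0.506), and it was below 0 under every alternative, from -0.80 to -0.42, with -0.46 without Notch3-/- mice 1 and 2. Per length, the ratio of Npr1 to Npr3 was 4.87, 3.93, 2.41 and 8.57 in control mice against 7.18, 5.71 and 7.91 in Notch3-/- mice.

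Gucy1a1 (ENSMUSG00000033910), on chromosome 3 (minus strand, 82092427 to 82145789), encodes the alpha-1 subunit of soluble guanylyl cyclase, the nitric oxide sensor of smooth muscle and pericytes. It had 55.6, 36.9, 40.2 and 65.8 CPM in control mice 1 to 4 and 33.9, 35.8 and 32.0 CPM in Notch3-/- mice 1 to 3. All 3 Notch3-/- mice lay below all 4 control mice, with a gap between Notch3-/- mouse 2 and control mouse 2 that was small beside the spread of the control mice. The means were 49.6 ± 13.5 CPM (SD, n = 4) and 33.9 ± 1.90 CPM (SD, n = 3), and the log2 fold change was -0.55 (SE 0.21, edgeR quasi-likelihood, Benjamini-Hochberg FDR 0.424). It was below 0 under every alternative, from -0.67 to -0.38, and no alternative called it. It was -0.62 without Notch3-/- mice 1 and 2, -0.65 among the mice with k labels and -0.54 with the hepatocyte score as a covariate. In bulk tissue, fewer cells of a type and less RNA per cell cannot be told apart. Gucy1a1 shares 1 exon base with Mir7010.

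Gucy1b1, which encodes the beta-1 subunit that pairs with alpha-1, was on the list of other pathway genes. It had 24.0, 24.0, 28.0 and 29.7 CPM in control mice and 16.1, 22.3 and 15.9 CPM in Notch3-/- mice. Here too the Notch3-/- mice lay below all control mice, with a log2 fold change of -0.54 (SE 0.20, edgeR quasi-likelihood, Benjamini-Hochberg FDR 0.391) and a range of -0.73 to -0.46 over the alternatives, the lowest without Notch3-/- mice 1 and 2. Per length, the ratio of Gucy1a1 to Gucy1b1 was 1.30, 0.865, 0.810 and 1.25 in control mice against 1.18, 0.904 and 1.13 in Notch3-/- mice, and these ranges overlapped. Since both subunits stood lower in all 3 Notch3-/- mice, their promoters were searched for TGGGAA, the core letters bound by RBPJ, the DNA-binding partner of Notch receptors. On either strand these letters stood before the start in 21.6% of the 32851 promoters. Of the 8 members with an entry, 2 had them before a start, Npr1 and Gucy1a1, which is near that share. The share is per start, while Ace and Gucy1a1 each had 2 starts searched. Of the 2 starts listed for Gucy1a1, 1 had no match and the other had 3, at 110, 78 and 60 bases before the start, 1 forward and 2 on the other strand. The sequence before that start, chr3:82145074-82145262 on the minus strand, is given for the 189 bases that lie in no annotated exon. Gucy1b1 had 1 match at 65 bases before its start, at chr3:82074712-82074961 on the minus strand. Capitals mark TGGGAA or, on the other strand, TTCCCA.
Gucy1a1 promoter: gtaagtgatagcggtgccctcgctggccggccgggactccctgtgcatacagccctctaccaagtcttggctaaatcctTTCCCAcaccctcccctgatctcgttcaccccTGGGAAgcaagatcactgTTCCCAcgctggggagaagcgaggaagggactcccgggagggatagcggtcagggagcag
Gucy1b1 promoter: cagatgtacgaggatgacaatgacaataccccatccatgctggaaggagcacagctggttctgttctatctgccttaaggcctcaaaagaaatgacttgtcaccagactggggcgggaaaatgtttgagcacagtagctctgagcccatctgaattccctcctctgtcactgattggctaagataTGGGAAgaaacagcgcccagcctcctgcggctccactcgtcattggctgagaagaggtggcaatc
These matches describe letters in the window and nothing is drawn from them about binding.

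Levels were compared between genes per kilobase of exon, in CPM per kb. In control mice Agtr1a was the highest at 40.1 ± 3.74 (SD, n = 4), followed by Ednra at 24.3 ± 3.90, Nos3 at 18.9 ± 2.73 and Ace at 12.3 ± 1.93. Npr1 at 7.89, Ednrb at 7.39, Gucy1a1 at 7.12 and Agt at 6.60 came next, and Edn1 at 4.33 and Npr3 at 1.80 were the lowest. The control ranges were clear of the next gene for Agtr1a above Ednra, Nos3 above Ace and Edn1 above Npr3. All other neighbours in this order overlapped over the 4 control mice. In Notch3-/- mice Agt ranked 1 at 88.3 ± 73.9 CPM per kb (SD, n = 3), against rank 8 in control mice. That mean rests on Notch3-/- mice 1 and 2, and in Notch3-/- mouse 3 alone Agt ranked 5, at 14.2 CPM per kb, below Agtr1a, Ednra, Nos3 and Ace. Among control mice the coefficient of variation was lowest for Agtr1a, 9.32%, and highest for Agt, 57.3%, and for Gucy1a1 it was 27.2% in control and 5.61% in Notch3-/- mice.

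**Figure D3:**
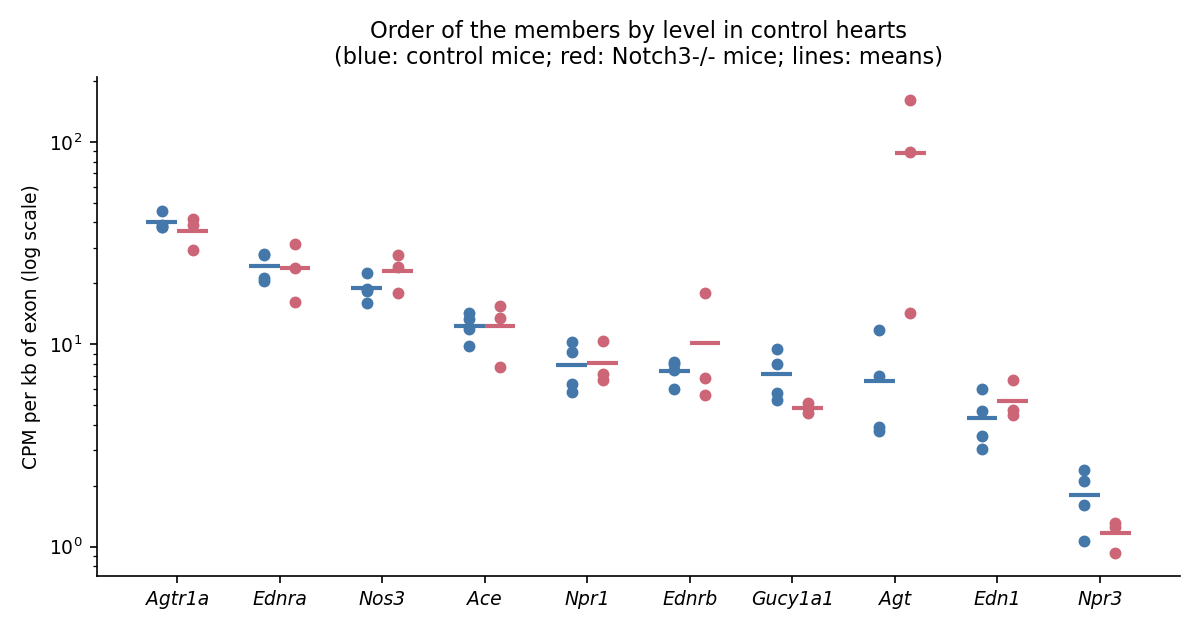
CPM per kb of exon of the 10 genes on a log scale, ordered by their mean in control mice, with 1 dot per mouse (blue control, red Notch3-/-) and lines for the means. The order runs from Agtr1a at 40.1 to Npr3 at 1.80 in control mice, and the Notch3-/- dots leave the control range most for Agt.

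The other genes of these pathways were taken from lists of 64 genes, of which 59 had a count and 43 were tested. EdgeR called 0 of the 43, DESeq2 called 5 (Enpep, Gch1, Kng1, Kng2 and Pde9a, of 49 tested, where it called 3.53% of all genes), edgeR on every gene called 3 (Gch1, Kng1 and Kng2, of 59 tested, against 2.22% of all) and limma-voom called 0 of 35, against 0.581%. At an unadjusted p below 0.05, 8 of the 43 were higher in edgeR, where 7.34% of all genes were, and 2 lower (Gucy1b1 and Ramp2), where 3.05% were. Of the 43, 3 lay above all control mice in each of the Notch3-/- mice (Enpep, Gch1 and Apln), against 4.57% of all genes, and 4 lay below (Gucy1b1, Mrvi1, Pde1a and Ramp2), against 3.96%. The median log2 fold change was 0.10, against -0.0028 over all genes. Without Notch3-/- mouse 3, edgeR called 7 of 44 tested, where it called 6.24% of all genes. It called 0 of 48 without Notch3-/- mice 1 and 2, with 0 higher and 2 lower (Gucy1b1, and Slc7a1, named here after its values were seen) at an unadjusted p below 0.05, where 2.44% and 2.72% of all genes were, and the median was 0.0058. Notch3-/- mouse 3 alone was above all control mice for 11 of the 48 and below them for 9, against 19.9% and 21.1% of all genes. Ren1, the renin gene, Adm2, Calca, Apela and Vip had 0 counts in all 7 mice, which allows at most 0.103 CPM over all libraries, a bound that covers counting error only.

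In the renin-angiotensin list 6 of 11 other genes were tested, with 2 higher and 0 lower at an unadjusted p below 0.05, where 7.34% and 3.05% of all genes were. The median log2 fold change was 0.11, or 0.30 over 8 genes without Notch3-/- mice 1 and 2. Enpep, the gene of aminopeptidase A, which cleaves angiotensin II, had 21.7, 19.2, 23.3 and 15.7 CPM in control mice and 28.4, 115 and 26.7 CPM in Notch3-/- mice. All Notch3-/- mice were above the control mice and Notch3-/- mouse 2 was far above the rest. For Enpep the log2 fold change was 1.51 (SE 0.47, edgeR quasi-likelihood, Benjamini-Hochberg FDR 0.290), and 0.41 without Notch3-/- mice 1 and 2. Mme, the gene of neprilysin, which cleaves natriuretic and other peptides, had a log2 fold change of 0.42 (edgeR FDR 0.445), or 0.40 without Notch3-/- mice 1 and 2, and overlapped. The lowest log2 fold change was -0.23, of Nr3c2, the mineralocorticoid receptor gene, which shares 247 exon bases with Gm10649 on the other strand and was at -0.24 without those mice, -0.079 without control mouse 1 and -0.038 among the k-labelled mice. In the endothelin list 3 of 4 other genes were tested with 0 at an unadjusted p below 0.05 in either direction, and their median was 0.10, or 0.11 without Notch3-/- mice 1 and 2. Ece1, which encodes the endothelin-converting enzyme, had a log2 fold change of 0.34, and of 0.011 without Notch3-/- mice 1 and 2. Edn3, the gene of endothelin-3, had 3.29, 15.0, 60.0 and 28.1 CPM in control mice and 13.7, 13.9 and 42.9 CPM in Notch3-/- mice. The control mice spanned the whole range of the Notch3-/- mice, and its log2 fold change was -0.18 with all mice and 0.67 without Notch3-/- mice 1 and 2.

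The nitric oxide and cyclic GMP list had 18 of 20 other genes tested, 3 higher and 1 lower at an unadjusted p below 0.05, where 7.34% and 3.05% of all genes were. Its median was -0.015, or -0.22 over 19 genes without Notch3-/- mice 1 and 2. Gch1, the gene of the enzyme that starts the synthesis of the nitric oxide synthase cofactor tetrahydrobiopterin, had 9.55, 11.8, 10.8 and 7.35 CPM in control mice and 30.3, 36.6 and 11.9 CPM in Notch3-/- mice. Notch3-/- mouse 3 was next to control mouse 2, and the other Notch3-/- mice were above all others. Gch1 had a log2 fold change of 1.39 (SE 0.36, edgeR quasi-likelihood, Benjamini-Hochberg FDR 0.204), 0.26 without Notch3-/- mice 1 and 2 and -0.02 with the hepatocyte score. Ddah1, which breaks down an inhibitor of nitric oxide synthase, had a log2 fold change of 1.19, and Pde9a, a cyclic GMP phosphodiesterase, of 1.64. Without Notch3-/- mice 1 and 2, Ddah1 was at -0.28 and Pde9a at 0.37. On the lower side, Mrvi1, a target of cyclic GMP kinase in smooth muscle, had a log2 fold change of -0.48 (edgeR FDR 0.497) and Pde1a, another phosphodiesterase, of -0.27 (edgeR FDR 0.698), and Notch3-/- mice did not overlap with control mice for either. Mrvi1 had 26.7, 16.4, 18.8 and 22.0 CPM in control mice and 13.7, 15.6 and 15.7 CPM in Notch3-/- mice. Without Notch3-/- mice 1 and 2 the log2 fold changes of Mrvi1 and Pde1a were -0.41 and -0.26, and among the k-labelled mice that of Pde1a was -0.10. Mrvi1 shares 108 exon bases with the antisense gene Gm16336. Cav1, the caveolin gene whose product binds endothelial nitric oxide synthase, had the highest level of this list per length and a log2 fold change of 0.10, or 0.086 without Notch3-/- mice 1 and 2.

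In the natriuretic peptide list 5 of 6 other genes were tested, 0 with an unadjusted p below 0.05, and the median was 0.35, or -0.030 without Notch3-/- mice 1 and 2. Nppa, the atrial natriuretic peptide gene, had 27.0, 27.8, 160 and 68.5 CPM in control mice and 42.6, 190 and 71.1 CPM in Notch3-/- mice. The control mice alone spanned most of the range. Its log2 fold change was 0.51 (edgeR quasi-likelihood, Benjamini-Hochberg FDR 0.835) and 0.00022 without Notch3-/- mice 1 and 2, and it shares 532 exon bases with the antisense gene Gm13054. The log2 fold change of Nppa was -0.31 without Notch3-/- mouse 2, 1.29 without control mouse 3 and -0.18 among the k-labelled mice. Nppb, the brain natriuretic peptide gene, had 28.3, 66.0, 216 and 173 CPM in control mice and 169, 190 and 155 CPM in Notch3-/- mice. The low values were those of control mice 1 and 2, both with X labels, and the k-labelled control mice overlapped with the Notch3-/- mice. Nppb had a log2 fold change of 0.50 (edgeR FDR 0.787) with all mice, 0.36 without Notch3-/- mice 1 and 2 and -0.19 among the k-labelled mice. Whether the labels mark a batch is not given.

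Of the other vasoactive peptide genes 11 of 23 were tested, 3 higher and 1 lower at an unadjusted p below 0.05, where 7.34% and 3.05% of all genes were. Their median was 0.23, or 0.17 over 13 genes without Notch3-/- mice 1 and 2. Apln, the gene of apelin, a peptide that dilates vessels, had 35.6, 31.4, 28.9 and 30.1 CPM in control mice and 39.6, 47.5 and 39.9 CPM in Notch3-/- mice. All 3 Notch3-/- mice were above the control mice and close together, with a log2 fold change of 0.43 (SE 0.15, edgeR quasi-likelihood, Benjamini-Hochberg FDR 0.361) and 0.34 without Notch3-/- mice 1 and 2. Ramp2, which forms the adrenomedullin receptor with Calcrl, had 182, 158, 159 and 153 CPM in control mice and 129, 138 and 137 CPM in Notch3-/- mice. All Notch3-/- mice were lower, at a log2 fold change of -0.27 (SE 0.12, edgeR FDR 0.479) and -0.24 without Notch3-/- mice 1 and 2, and the value is uncertain because Ramp2 shares 1103 exon bases on the same strand with Vps25. Kng1, the gene of kininogen, a liver product from which bradykinin is cut, was counted 2, 14, 0 and 0 times in the control mice against 773, 2339 and 7 times in Notch3-/- mice 1 to 3. Its log2 fold change came to 7.79 (SE 1.55, edgeR FDR 0.118), and 0.41 without Notch3-/- mice 1 and 2. Its paralog Kng2 was counted 1, 2, 0 and 0 times in the control mice against 156, 537 and 0 times in Notch3-/- mice 1 to 3, and reads shared by the paralogs may have been split between them. Vipr1, a receptor of vasoactive intestinal peptide, had a log2 fold change of 1.75, and of 0.22 without Notch3-/- mice 1 and 2.

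**Figure D4:**
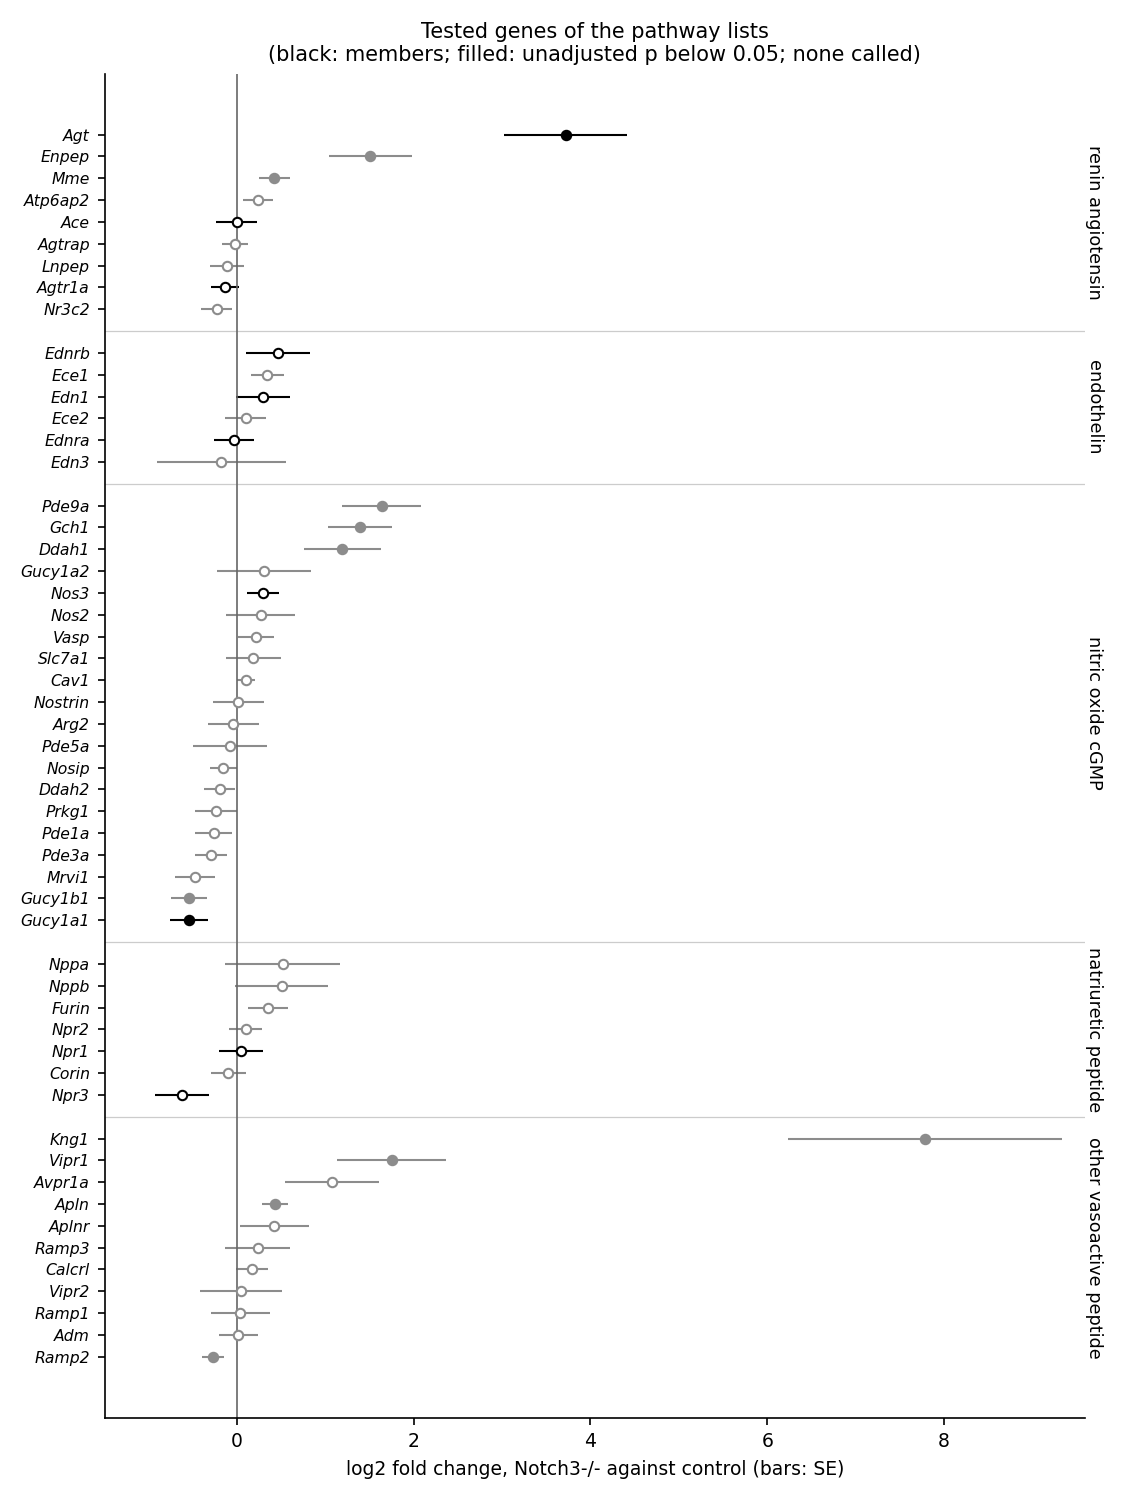
Log2 fold change, Notch3-/- against control, with its SE, for the tested genes of the 5 pathway lists, black for the 10 member genes and filled where the unadjusted p was below 0.05. The highest is Kng1 at 7.79, and no gene was called by edgeR.

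Marker lists of the cell types in or near the tissue were summed in each mouse. The smooth muscle list of 7 genes, led by Smtn, had 758, 597, 546 and 629 CPM in control mice and 693, 481 and 516 CPM in Notch3-/- mice, and the groups overlapped in this sum. Of its 5 tested genes, 0 were higher and 2 lower in edgeR at an unadjusted p below 0.05, Myh11 and Tagln, where 7.34% and 3.05% of all genes were, and the median log2 fold change was -0.22. It was -0.86 when Notch3-/- mice 1 and 2 were left out, with 0 higher and 3 lower, Myh11, Tagln and Mylk, where 2.44% and 2.72% of all genes were. These and the other genes of the list are named here after their values were seen. Myh11 had 39.8, 20.4, 10.6 and 19.7 CPM in control mice and 3.28, 5.05 and 3.59 CPM in Notch3-/- mice, all below the control mice. Its log2 fold change was -2.49 (SE 0.45, edgeR quasi-likelihood, Benjamini-Hochberg FDR 0.118), or -2.63 without Notch3-/- mice 1 and 2, and it was below 0 under every alternative, from -2.92 to -1.92. EdgeR did not call Myh11 with all mice, while DESeq2 (FDR 5.53e-05), edgeR on every gene (FDR 0.00306) and limma-voom (FDR 0.0303) did, within a range of 5.53e-05 to 0.999 over all alternatives. Tagln was at -0.93 (edgeR FDR 0.396), or -1.15 without those mice, and Smtn at -0.22, or -0.19. Acta2 had 160, 167, 83.5 and 89.2 CPM in control mice and 267, 36.0 and 114 CPM in Notch3-/- mice, above the control range in 1 Notch3-/- mouse and below it in another. Mylk had 47.7, 38.4, 38.1 and 63.8 CPM in control mice and 45.4, 95.3 and 25.7 CPM in Notch3-/- mice, again with 1 mouse above and 1 below. Acta2 and Mylk had log2 fold changes of 0.15 and 0.24 with all mice and of -0.13 and -0.86 without Notch3-/- mice 1 and 2. Cnn1 and Lmod1 did not pass the filter for testing. Cnn1 was at -1.09 to -1.03 in the 3 alternatives that tested it, and Lmod1 at -1.35 to -1.30 in 2. No alternative called either. The part of these genes in the values of Gucy1a1 and Gucy1b1 was not tested. The pericyte list of 6 genes, led by Rgs5, had 1263, 1137, 1167 and 1213 CPM in control mice and 1106, 940 and 989 CPM in Notch3-/- mice. All Notch3-/- mice were below the control mice in this sum, as they were for Gucy1a1 and Gucy1b1, and the part of this sum in those values was not tested either. Of the 6 pericyte genes, all tested, 5 had a log2 fold change below 0 and 1 above. In edgeR 2 were lower at an unadjusted p below 0.05, against 3.05% of all genes, and 0 were higher. The median was -0.17, or -0.20 without Notch3-/- mice 1 and 2, where all 6 were below 0. The endothelial list of 10 genes, led by Kdr, had 1438, 1212, 1379 and 1651 CPM in control mice and 1501, 1579 and 1523 CPM in Notch3-/- mice, and the fibroblast list of 8, led by Dcn, had 1464, 1275, 1231 and 1240 against 1390, 1539 and 1755 CPM. Of the 8 fibroblast genes, all tested, 4 were higher and 1 lower in edgeR at an unadjusted p below 0.05, where 7.34% and 3.05% of all genes were. Their median log2 fold change was 0.26, or 0.31 without Notch3-/- mice 1 and 2. EdgeR called 0, DESeq2 called Col1a1 and Col3a1, and edgeR on every gene and limma-voom called Col3a1, all higher. These tools called 0.00698%, 3.53%, 2.22% and 0.581% of all genes. These genes are named here after their values were seen. None of the smooth muscle, pericyte, endothelial and fibroblast markers was at 0 in all mice.

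The tissue label was checked in the same way. The 9 ventricular cardiomyocyte genes, led by Ttn, summed to 30401, 22140, 25622 and 29130 CPM in control mice and 30182, 19956 and 21583 CPM in Notch3-/- mice. The 4 atrial genes, led by Myl4, had 19.8, 8.01, 6.12 and 16.0 against 6.01, 6.73 and 7.94 CPM, with Bmp10 at 0 in all control mice. Ventricular genes were thus present at high levels in every mouse and atrial genes at low levels. All 9 ventricular genes had a log2 fold change below 0, and 0 had an unadjusted p below 0.05 in edgeR. Their median was -0.24, or -0.33 without Notch3-/- mice 1 and 2. Notch3-/- mouse 3 was below all control mice for 8 of the 9, against 21.1% of all genes. The part of this in the values of other genes was not tested. The 4 lung epithelium markers, led by Scgb1a1, had at most 6.95 CPM in a control mouse and 5.19 in a Notch3-/- mouse, and the 5 adipocyte markers, led by Cidec over all mice, 11.0 and 20.8. The 7 leukocyte markers, led by Lyz2, had 303 to 356 CPM in control and 331 to 395 CPM in Notch3-/- mice, and the 5 erythroid genes, led by Hbb-bs, 351 to 536 and 206 to 475 CPM. All 5 erythroid genes had a log2 fold change below 0, and 2 were lower in edgeR at an unadjusted p below 0.05, against 3.05% of all genes. Their median was -0.48, or -1.08 without Notch3-/- mice 1 and 2. Notch3-/- mouse 3 was below all control mice for 5 of these 5, against 21.1% of all genes. The values without Notch3-/- mice 1 and 2 rest on Notch3-/- mouse 3.

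**Figure D5:**
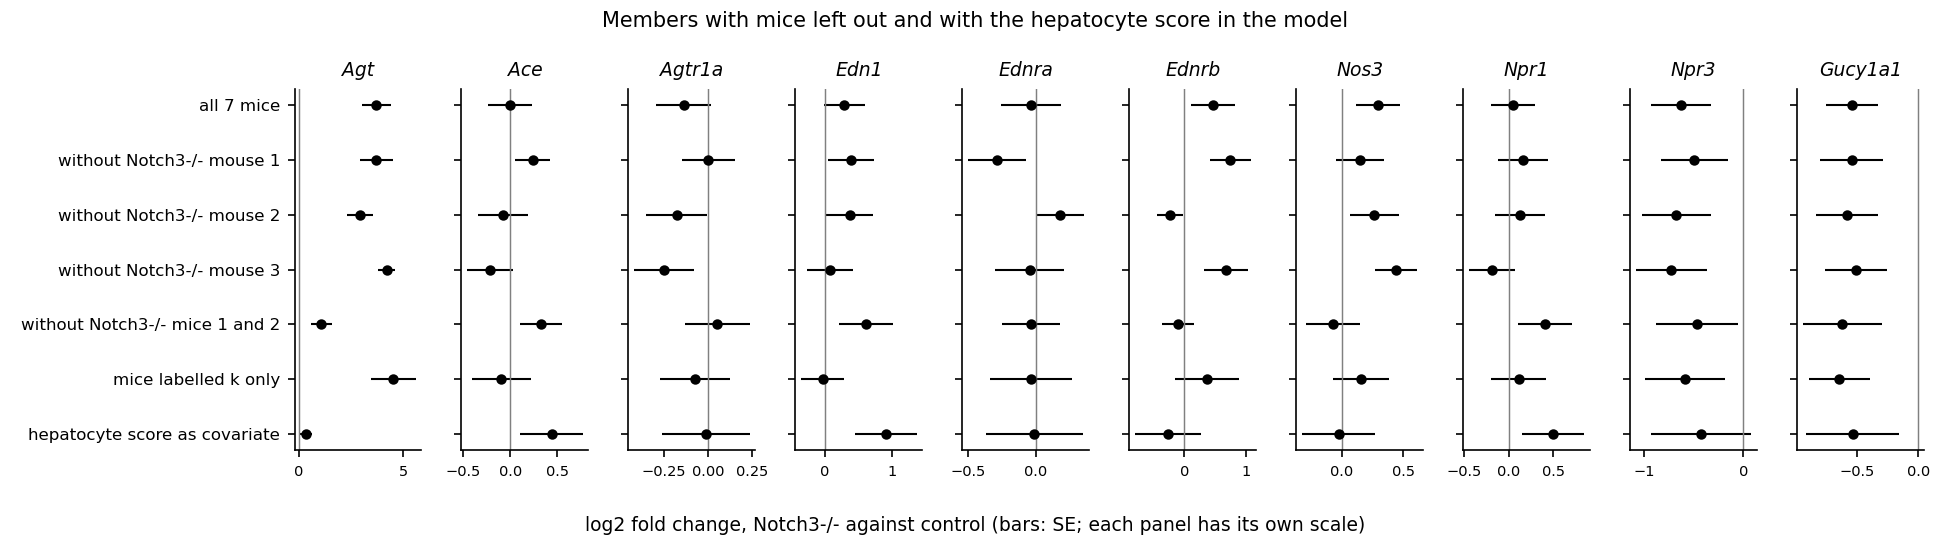
Log2 fold change with its SE for each of the 10 genes with all 7 mice, with single Notch3-/- mice or mice 1 and 2 left out, among the k-labelled mice, and with the hepatocyte score as a covariate, each panel on its own scale. Agt moves from 3.72 to 1.08 without Notch3-/- mice 1 and 2 and to 0.36 with the score, while Gucy1a1 is between -0.65 and -0.51 in these fits. The score is high in Notch3-/- mice 1 and 2 alone.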

How the data were processed

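The authors deposited counts, whole numbers of reads per gene in each library, without normalization. The submitters' processing notes name CASAVA and mm10, and the aligner, the counter and the use of strand are not given in the sources used here. The 92 ERCC spike-in entries (34 counts) were left out. Of the 46517 gene identifiers, 46005 were found in GENCODE vM21, which gave symbols, coordinates (GRCm38) and exon lengths, and 512 were not. Promoter sequences are those of RefSeq, GRCm38.p6.

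The 3 technical libraries were summed per mouse. Genes were filtered with filterByExpr, scaled with TMM and tested by genotype with the edgeR quasi-likelihood test (R 4.3.3, edgeR 4.0.16), with Benjamini-Hochberg adjustment over all 14324 genes. A gene was called at an FDR below 0.05 and a fold change of at least 1.5. No test was made over the members as a set. The procedure was tested on simulated data, where all genes had the same dispersion, no mice stood apart and libraries had no mouse effect. It thus does not show how the fits behave with mice such as Notch3-/- mice 1 and 2. Tables and figures were made in Python 3.11.15 (pandas 2.3.3, numpy 2.4.6, matplotlib 3.10.9). Reads were amplified by PCR without molecular identifiers.

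Alternatives were DESeq2 1.42.0, RLE factors, TMM factors that left out 185 liver-related genes, a filter of 1 count in all, a filter of 5 CPM on average, each mouse left out, Notch3-/- mice 1 and 2 left out, the k-labelled mice alone, a hepatocyte score as covariate, and limma-voom (limma 3.58.1) on the 21 libraries with the mouse as random effect, with and without the technical number as a block. Named beside the members and Notch3 were, in each pathway list, every tested gene with an unadjusted p below 0.05 or without overlap, those with the largest positive and negative log2 fold change, the most abundant per length, the most abundant gene of each marker list, and the 3 genes most like each of the 2 members that varied most. Some genes of the pathway lists are not reported here and were left out of their counts and medians. The members and lists were chosen with earlier results of these data known.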

Additional observations from a re-analysis of the deposited data

Results flagged for a closer look

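Among 41 sets of the 4 control mice (genes and summed marker lists), 4 had 1 mouse farther from the others than Dixon's 95% critical value allows, where chance gives about 1 in 20 groups. Agtr1a was highest in control mouse 2, at 127 CPM, and Mme in control mouse 3, at 30.3 CPM. The lung epithelium markers summed to 6.95 CPM in control mouse 2 and the adipocyte markers to 11.0 CPM in control mouse 4, both at few counts. The cause was not tested.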

How the results depend on the processing

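For the 10 members, 145 of 170 values under 17 alternatives kept their direction and side of the threshold, 5 passed the threshold (all for Agt) and 20 changed sign, and for the other 19 named genes these numbers were 284, 12 and 17 of 315, with 2 no longer past it, both for Notch3. Of 85 medians of the 5 pathway lists under these alternatives, with the members included in each list, 74 moved by less than the SD of the list's median over control mice and 11 by more. EdgeR called 1 gene with all mice, 0 among the k-labelled mice and 0 with the hepatocyte score, DESeq2 called 601, edgeR on every gene 639 and limma-voom 65, and leaving out 1 mouse gave 1 to 936. Of the members, 1 was called by DESeq2, on every gene and by limma-voom, and 0 to 1 with 1 mouse left out. Of the other pathway genes, DESeq2 called 5 and edgeR on every gene 3, and 0 to 7 were called with 1 mouse left out, the highest without Notch3-/- mouse 3. Log2 fold changes that changed sign were these. With TMM factors that left out liver-related genes Ace was at 0.0035. With 1 mouse left out, Ace ranged from -0.21 to 0.24, Agtr1a from -0.25 to 0.00083, Ednra from -0.28 to 0.18, Ednrb from -0.24 to 0.75, Npr1 from -0.18 to 0.19, Edn3 from -0.97 to 0.61 and Nppa from -0.31 to 1.29. Without Notch3-/- mice 1 and 2 Ace was at 0.33, Agtr1a at 0.052, Ednrb at -0.11, Nos3 at -0.070, Ddah1 at -0.28 and Edn3 at 0.67. Among the k-labelled mice Edn1 was at -0.030, Nppa at -0.18 and Nppb at -0.19. With the hepatocyte score Ace was at 0.44, Ednrb at -0.27, Nos3 at -0.024, Ddah1 at -0.64, Ece1 at -0.12, Edn3 at 1.51, Gch1 at -0.019, Kng1 at -1.03, Pde9a at -0.015 and Vipr1 at -0.24. In limma-voom Edn3 was at 0.15. The cause was not tested. Depth limits the least abundant genes most, such as Edn1 and Npr3.

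With the technical number as a replicate block, limma-voom called 62 genes, 1 member and 0 other pathway genes, and Edn3 was at 0.13. The technical numbers did not pair libraries of different mice, with a median correlation of deviations of -0.015 for equal and 0.0040 for different numbers.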
